A study of Homo sapiens with 8 samples.

Results

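Irradiated cells with a knockdown of ATM were compared with irradiated wild-type (WT) cells of the same line, MDA-MB-231, a mesenchymal human line derived from a triple-negative breast tumour. The comparison took the 4 libraries that the labels call irradiated, and kept single cells with at least 1000 detected genes and 5000 counts. This left 182 of 189 cells, out of 363 kept cells of 378 in the whole series. The irradiated ATM knockdown held 86 kept cells of 93, 43 in each of its 2 libraries, and irradiated WT held 96 of 96, 48 in each library. Both groups had received 5 Gy of ionizing radiation and were collected after a further 4 h in culture, and cells were picked singly and amplified by a modified Smart-seq2 protocol with libraries of mRNA 3' ends. Untreated ATM knockdown and untreated WT, of 85 and 96 kept cells, had no radiation and are used where the effect of genotype with and without radiation is set side by side. The knockdown construct, and whether the knockdown cells were a clone or a pool, are not given in the sources used here.

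Each library counted as 1 replicate. Whether paired libraries of a group were grown separately is not stated by the labels, so p-values cover only the variation seen between these libraries, possibly technical in origin. Kept cells summed to 19813882 and 19392992 counts in the irradiated knockdown libraries and to 9321268 and 19675584 counts in the irradiated WT libraries, so irradiated WT replicate 1 was the shallowest. Between 46.1% and 53.5% of each irradiated library's counts lay in its 10 largest cells. All WT libraries carry one title suffix and all knockdown libraries another, so handling and genotype cannot be told apart. No cell name was shared between libraries, and no kept cells had identical counts. Defining genes of the line, VIM, CD44, CAV1, LGALS1 and S100A4, were detected in each irradiated library, SPARC was at or below 0.707 CPM, ESR1 was not listed in any table, PGR was at 0 and CDH1 was at or below 0.309 CPM. CPM here is counts scaled to a library total of 1000000 kept counts. EPCAM, low in cells of this kind, was at 48.2 and 61.3 CPM in irradiated knockdown libraries and at 24.4 and 30.4 CPM in irradiated WT libraries. Of the defining leukocyte genes, PTPRC reached at most 1.80 CPM and CORO1A at most 1.70 CPM, and CD3D and LYZ were at 0. Other leukocyte genes were detected. SRGN was at 224 and 167 CPM in irradiated knockdown libraries and 133 and 118 CPM in irradiated WT libraries. LAPTM5 was at 19.03 and 20.3 CPM in irradiated knockdown libraries and 74.7 and 55.6 CPM in irradiated WT libraries. No marker of embryonic kidney lines was tested. At an equal depth of 71000 counts per cell, mitochondrial genes took 10.9% and 11.7% of counts in irradiated knockdown libraries and 10.1% and 10.6% in irradiated WT libraries.

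ATM is a large protein kinase that is activated at DNA double-strand breaks, and it phosphorylates the checkpoint kinase CHEK2, p53 and many repair proteins, so that the cell cycle stops while breaks are joined. It also passes the damage signal to NF-kB through the adaptor NEMO, and NF-kB then drives genes of inflammatory cytokines and of survival proteins. MDA-MB-231 cells carry a mutant p53 and have high basal NF-kB activity. These statements are background.

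Irradiated ATM knockdown and irradiated WT differed in 635 of 12456 genes tested, or 5.1%, at an adjusted p below 0.05 in edgeR's quasi-likelihood test with Benjamini-Hochberg adjustment over all genes. Of these, 271 (2.18% of genes tested) were higher and 364 (2.92%) were lower in irradiated knockdown. Among those that averaged 5 or more in log2 CPM and whose libraries did not overlap, large rises were found in FTH1, PDZK1IP1 and HMOX1, and the largest falls in IFIT1, CXCL2, IFIT2 and CXCL8. The irradiated WT libraries differed widely for these falls. Replicate 1 stood well above replicate 2 for IFIT1 and IFIT2, and replicate 2 well above replicate 1 for CXCL2 and CXCL8. Chemokines, NF-kB feedback genes, interferon-response genes, S100 proteins and glycolytic enzymes held falls, and ribosome biogenesis, cholesterol synthesis and heat shock genes held rises. In either direction 5.1% of all genes passed, against 50% of S100, 40% of cytokine, 30% of interferon and 28.1% of glycolysis genes. The share was 24% for cholesterol, 23.5% for ribosome biogenesis, 23.1% for NF-kB and for heat shock, 21.2% for G2/M and 17.1% for matrix genes. It was 16.7% for lysosome, 15.4% for luminal, 10.3% for apoptosis and 8.16% for G1/S genes. Plasminogen activation genes had 42.9%, reductases and cystatins 40%, osmoprotective genes 33.3%, leukocyte genes 28.6% and fibroblast genes 25%. Mitochondrially encoded, polyamine, and YAP and actin genes each had 23.1%, MAP kinase 22.2% and iron genes 21.4%. Histones and ID and SOX regulators had 18.2%, respiratory chain genes 17.1%, ribosomal proteins 15.6%, immediate early 15.4% and basal genes 14.3%. Unfolded protein genes had 12% and NRF2 targets 10%. Damage sensing genes had 5.26%, and no member passed in the homologous recombination, end joining, p53, MHC class I and synthetase lists. The lists were chosen with earlier results of these data known, so these shares are not a test. The unadjusted p was below 0.05 for 2303 genes, and the libraries of the 2 groups did not overlap for 52.2% of the genes tested (29.6% with knockdown higher and 22.6% with knockdown lower), so lack of overlap alone is not a mark of any gene here. With 1 irradiated library left out the number of genes past the threshold was 340 and 308 (knockdown replicates 1 and 2) and 378 and 412 (WT replicates 1 and 2).

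ATM itself lies on chromosome 11 from 108222484 to 108369102 (GRCh38). Its transcript had 13.02 and 14.03 CPM in irradiated knockdown libraries and 28.00 and 33.2 CPM in irradiated WT libraries. Both knockdown libraries lay below both WT libraries. The log2 change was -1.25 ± 0.42 (SE) with an adjusted p of 0.109, so the ATM transcript did not pass the threshold over all genes. At equal depth, 34.9% and 40.0% of cells in irradiated knockdown libraries held an ATM count, against 59.5% and 54.3% in irradiated WT libraries, and with 2 libraries a group an exact permutation test cannot go below 0.333. The gene overlaps NPAT and C11orf65, and 3' counts do not measure ATM protein.

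Genes that sense or repair DNA breaks were compared 4 h after irradiation. Of 19 tested members of the list of damage sensing and checkpoint kinases, 9 were higher and 10 lower, and 1 passed, CHEK1, the kinase that acts after ATR on stalled forks, a share of 5.26% against 5.1% of all genes tested. CHEK1 was at 33.9 and 34.9 CPM in irradiated knockdown libraries and at 77.3 and 76.5 CPM in irradiated WT libraries, a log2 change of -1.23 ± 0.30 (adjusted p = 0.0256), and it overlaps STT3A and ACRV1. Knockdown libraries were both lower, but the call was lost with any 1 of the 4 libraries left out. At the 5.1% share over all genes, the repair lists that follow would hold few calls. None of 28 homologous recombination and Fanconi anaemia genes passed, and none of 10 genes of non-homologous end joining. The nearest were FANCD2, which marks crosslinks and stalled forks when ubiquitinated, at 13.98 and 11.1 CPM in irradiated knockdown libraries and 27.8 and 32.5 CPM in irradiated WT libraries (log2 change -1.33, adjusted p = 0.0804), and FANCG (log2 change -1.25, adjusted p = 0.138). In end joining, the Ku subunit XRCC6 had a log2 change of -0.31 (adjusted p = 0.277) and the polymerase POLL one of 0.92 (adjusted p = 0.428).

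None of 26 tested p53 target genes passed the threshold, against 5.1% of all genes tested. At that share a list of this length would hold few calls. The median log2 change of the p53 targets was 0.04, against 0.00 over all genes tested. CDKN1A, the cyclin-dependent kinase inhibitor p21, was at 61.6 and 89.5 CPM in irradiated knockdown libraries and at 46.9 and 42.03 CPM in irradiated WT libraries (log2 change 0.70 ± 0.31, adjusted p = 0.241). MDM2, the ubiquitin ligase of p53, was at 17.1 and 23.3 CPM in irradiated knockdown libraries and at 26.2 and 16.1 CPM in irradiated WT libraries, so its groups overlapped (adjusted p = 0.918). SESN2, a stress-induced regulator of mTORC1, had the smallest p of the list, at 12.3 and 18.9 CPM in irradiated knockdown libraries and 5.36 and 2.95 CPM in irradiated WT libraries (log2 change 1.85, adjusted p = 0.0827). TNFRSF10B, a TRAIL receptor, had a log2 change of 0.67 (adjusted p = 0.173), and the stress cytokine GDF15 lay between 1.36 and 9.69 CPM in the 4 irradiated libraries. Among 29 apoptosis regulators 1 rose and 2 fell, together 10.3%, against 5.1% of all genes tested. PMAIP1, the BH3-only protein NOXA, rose by a log2 change of 0.87 (adjusted p = 0.0375), while BAD, a BH3-only protein as well, fell with a change of -0.88 (adjusted p = 0.0434). Both calls were lost with at least 2 of the irradiated libraries left out in turn.

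The genes with the largest rises in irradiated knockdown were led by FTH1, the heavy chain of ferritin, the iron store of the cell (chromosome 11, 61959718 to 61967660, GRCh38). FTH1 was at 649 and 438 CPM in irradiated knockdown libraries and at 26.7 and 29.99 CPM in irradiated WT libraries, a log2 change of 4.18 ± 0.25 (adjusted p = 3.91e-07). At equal depth all 43 and all 40 cells of the irradiated knockdown libraries held an FTH1 count, with medians of 29 and 21 counts per cell, against 26 of 37 and 35 of 46 cells and medians of 2 and 2 in irradiated WT libraries. The gene overlaps BEST1 and has 25 named pseudogenes, which may share its reads, and the ferritin light chain FTL was at 7282 and 6443 CPM in irradiated knockdown libraries and 7335 and 7269 CPM in irradiated WT libraries (adjusted p = 0.39). In the same list of 14 iron and metallothionein genes, 3 rose and none fell. The transferrin receptor TFRC had a log2 change of 0.96 (adjusted p = 0.012) and the metal-binding MT1E one of 1.62 (adjusted p = 0.002). HMOX1, the haem oxygenase that frees iron from haem, was at 60.6 and 62.7 CPM in irradiated knockdown libraries and at 12.1 and 4.17 CPM in irradiated WT libraries (log2 change 2.88 ± 0.45, adjusted p = 0.00174). It was the 1 riser among 20 NRF2 target and glutathione genes, in which NQO1, a quinone reductase, fell (log2 change -0.57, adjusted p = 0.0271), although the NQO1 call was lost with any 1 irradiated library left out.

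Of 7 plasminogen activation genes 2 rose and 1 fell, a share of 42.9% against 5.1% of all genes tested. The urokinase receptor PLAUR rose with a change of 1.11 (adjusted p = 0.0231; above the threshold without irradiated knockdown replicate 2 or irradiated WT replicate 2, at most 0.214), and S100A10, the annexin A2 partner that binds plasminogen, fell with one of -0.58 (adjusted p = 0.0047). PDZK1IP1, a small membrane protein of epithelia, was at 133 and 102 CPM in irradiated knockdown libraries and at 15.3 and 11.3 CPM in irradiated WT libraries (log2 change 3.08, adjusted p = 2.66e-05). HSPG2, the basement membrane proteoglycan perlecan, was at 77.02 and 76.2 CPM in irradiated knockdown libraries and at 10.8 and 10.5 CPM in irradiated WT libraries (log2 change 2.78, adjusted p = 2.66e-05). Neither gene had overlapping libraries, as the rule that chose them required. APBB1IP, an adaptor between RAP1 and integrin-bound talin, rose by a log2 change of 2.44, and TRIM29, a tripartite-motif protein first described for complementing ataxia telangiectasia cells, by 2.16 (adjusted p = 0.00141 and 0.00268).

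Also among the 12 largest rises by this rule were MTRNR2L12, PSG4, FDPS, PNP and CLMP, with log2 changes between 1.84 and 2.01. MTRNR2L12 is a near copy of a stretch of mitochondrial ribosomal RNA, PSG4 is one of a family of near-identical pregnancy-specific glycoprotein genes, and FDPS has 8 named pseudogenes, so reads of these 3 may come in part from their copies. PNP, the purine nucleoside phosphorylase, was at 66.5 and 66.6 CPM in irradiated knockdown libraries and at 24.4 and 10.6 CPM in irradiated WT libraries, and its call was lost without irradiated WT replicate 2 (adjusted p = 0.0888). CLMP, an adhesion protein of tight junctions, was at 58.1 and 58.3 CPM in irradiated knockdown libraries and at 16.4 and 14.5 CPM in irradiated WT libraries (adjusted p = 0.00518). Knockdown libraries were the higher ones for both, as the rule that chose them required.

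**Figure D1:**
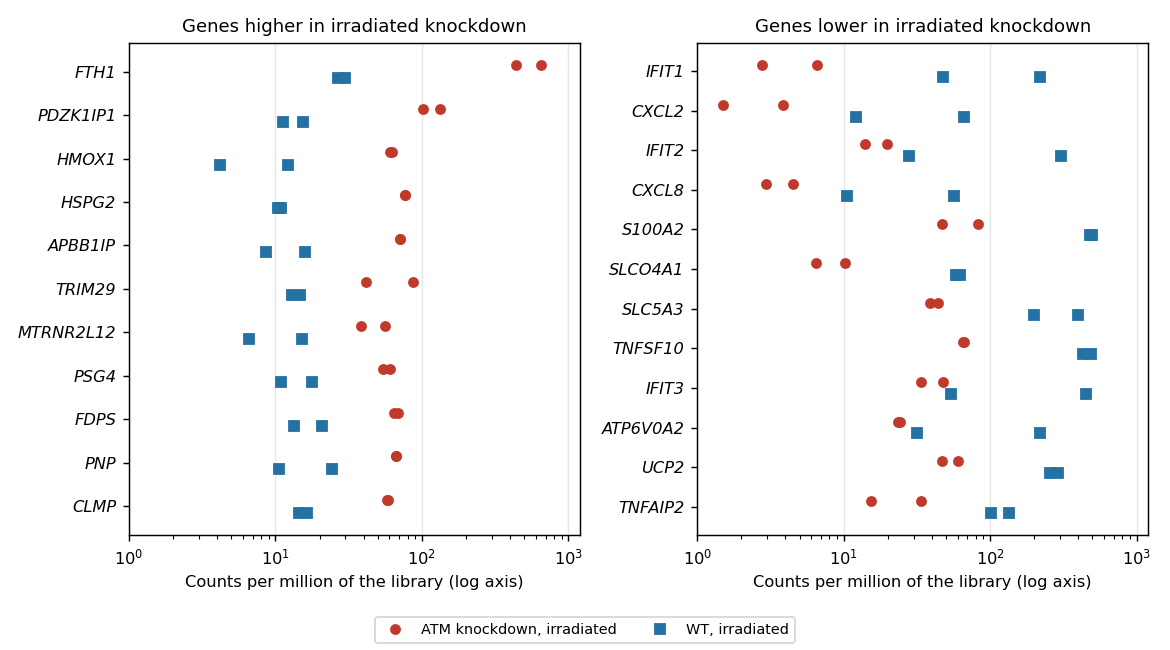
Levels of 11 of the 12 genes with the largest rise (left) and the 12 with the largest fall (right) in irradiated ATM knockdown, as CPM of each library on a log axis. Circles are the 2 irradiated knockdown libraries and squares the 2 irradiated WT libraries; groups do not overlap by the rule that chose the genes, and IFIT2, IFIT3 and ATP6V0A2 have 1 WT library close to the knockdown ones.

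Genes of inflammatory signalling were among those that fell. Of 20 tested cytokines and chemokines 6 fell and 2 rose, with a median log2 change of -1.34 against 0.00 over all genes. CXCL2, CXCL3 and CXCL8 are chemokines that recruit neutrophils, and all 3 are textbook targets of NF-kB. Of 26 NF-kB subunits, feedback genes and survival targets, 5 fell (TNFAIP2, NFKBIA, BCL3, BIRC3 and BIRC2) and 1 rose (SOD2, the mitochondrial superoxide dismutase), with a median of -0.18. The promoters of 4 of these genes are shown because their 250 bases before the RefSeq start hold a match to the NF-kB consensus, in capitals (RefSeq, GRCh38.p14). The windows are chr4:74099196-74099445 and chr4:74038690-74038939 on the minus strand, chr14:35404750-35404999 on the minus strand and chr11:102317234-102317483 on the plus strand.
CXCL2: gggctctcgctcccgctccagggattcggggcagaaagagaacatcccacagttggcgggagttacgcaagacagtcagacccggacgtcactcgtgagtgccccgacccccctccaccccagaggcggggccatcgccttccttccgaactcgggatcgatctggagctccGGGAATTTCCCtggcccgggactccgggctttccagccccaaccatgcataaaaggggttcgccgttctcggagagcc
CXCL3: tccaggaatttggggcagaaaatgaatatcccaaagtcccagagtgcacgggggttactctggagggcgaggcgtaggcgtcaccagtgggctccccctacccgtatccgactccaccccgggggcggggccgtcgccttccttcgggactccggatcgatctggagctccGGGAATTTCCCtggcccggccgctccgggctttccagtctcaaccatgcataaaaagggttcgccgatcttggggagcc
NFKBIA: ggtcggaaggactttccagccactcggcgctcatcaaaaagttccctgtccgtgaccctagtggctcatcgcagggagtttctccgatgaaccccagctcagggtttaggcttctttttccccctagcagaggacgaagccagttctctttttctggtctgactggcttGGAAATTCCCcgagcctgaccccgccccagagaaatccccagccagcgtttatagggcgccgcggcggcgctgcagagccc
BIRC3: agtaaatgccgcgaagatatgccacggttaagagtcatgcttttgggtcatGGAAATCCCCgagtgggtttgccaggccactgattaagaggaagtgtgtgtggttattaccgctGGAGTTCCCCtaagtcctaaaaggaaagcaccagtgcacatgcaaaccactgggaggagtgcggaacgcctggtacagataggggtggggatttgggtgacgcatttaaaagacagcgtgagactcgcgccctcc
The capitals in CXCL2 and CXCL3 cover 2 overlapping matches, and the same 11 capital letters stand in both promoters. Matches were counted on both strands, and the NF-kB consensus, of 10 bases, occurred in 5.05% of 27303 RefSeq promoter windows of the same length. It was found in 2 of the 4 fallen cytokine genes matched in the promoter table and in 2 of the 5 fallen genes of the NF-kB list. A match describes letters in the window only, and no match in the CXCL8 window says only that these letters are not in it.

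CXCL2 (chromosome 4, 74097035 to 74099293) was at 3.84 and 1.495 CPM in irradiated knockdown libraries and at 12.1 and 65.97 CPM in irradiated WT libraries, a log2 change of -3.95 ± 0.69 (adjusted p = 0.00367). CXCL8 (chromosome 4, 73740506 to 73743716), the interleukin-8 gene, was at 4.49 and 2.94 CPM in irradiated knockdown libraries and at 10.5 and 56.3 CPM in irradiated WT libraries (log2 change -3.25 ± 0.64, adjusted p = 0.00781). Both knockdown libraries were the lowest for both genes, as the rule that chose them required. For each gene, irradiated WT replicate 2 stood well above replicate 1. The CXCL8 call was lost without that WT library (adjusted p = 0.0864). At equal depth, CXCL8 counts were found in 3 of 43 and 3 of 40 cells of the irradiated knockdown libraries, against 7 of 37 and 26 of 46 cells of the irradiated WT libraries. CXCL3 had 9 and 1 counts in irradiated knockdown libraries and 85 and 379 counts in irradiated WT libraries (adjusted p = 0.00298). CCL2, which recruits monocytes, had 0 counts in both irradiated knockdown libraries and 263 and 245 counts in irradiated WT libraries, at least 229-fold lower in knockdown when 3 counts over the group are taken as the floor (adjusted p = 0.000146). These WT counts came from few cells, since 1 cell held 97.6% of the CCL2 counts of irradiated WT replicate 2, and the floor covers counting error only.

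TNFSF10, the death ligand TRAIL (chromosome 3, 172505508 to 172523507), was at 65.8 and 64.97 CPM in irradiated knockdown libraries and at 485 and 429.9 CPM in irradiated WT libraries, a log2 change of -2.88 ± 0.25 (adjusted p = 1.34e-05). A count at equal depth was found in 24 of 43 and 25 of 40 cells of the irradiated knockdown libraries, against 36 of 37 and 45 of 46 cells of the irradiated WT libraries. The largest cell held 12.5% to 19.0% of a library's TNFSF10 counts. CSF1, the macrophage growth factor, was at 110.3 and 163 CPM in irradiated knockdown libraries and at 228 and 263 CPM in irradiated WT libraries (log2 change -0.91, adjusted p = 0.00944). The 2 cytokines that rose were IL32, at 207 and 218 CPM in irradiated knockdown libraries and 71.02 and 54.7 CPM in irradiated WT libraries (adjusted p = 0.000384), and LIF, of the interleukin-6 family, at 38.2 and 44.4 CPM in irradiated knockdown libraries and 10.7 and 8.03 CPM in irradiated WT libraries (adjusted p = 0.00337). The cytokine list therefore did not move one way. IL6 was at 20.8 and 21.8 CPM in irradiated knockdown libraries and at 22.2 and 73.7 CPM in irradiated WT libraries and did not pass (adjusted p = 0.0733).

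NFKBIA, which encodes the inhibitor IkB-alpha and is switched on by NF-kB as feedback (chromosome 14, 35401511 to 35404749), was at 158 and 88.2 CPM in irradiated knockdown libraries and at 370.0 and 519 CPM in irradiated WT libraries. The groups did not overlap, and the log2 change was -1.93 ± 0.23 (adjusted p = 0.000262). TNFAIP2, induced by tumour necrosis factor, was at 33.97 and 15.3 CPM in irradiated knockdown libraries and at 102 and 134 CPM in irradiated WT libraries (log2 change -2.33, adjusted p = 0.00035). BIRC3, the apoptosis inhibitor cIAP2, was at 42.2 and 30.8 CPM in irradiated knockdown libraries and at 86.1 and 138 CPM in irradiated WT libraries (log2 change -1.69, adjusted p = 0.00197), and 1 cell held 74.2% of its counts in irradiated knockdown replicate 1. BIRC2, which encodes cIAP1, had a log2 change of -0.81 and the co-activator BCL3 one of -1.79, and SOD2 rose by 1.53. The subunit genes RELA and NFKB1, looked up after the values were seen, had log2 changes of -0.08 and 0.05 and did not pass (adjusted p = 0.901 and 0.959). Of 26 immediate early genes, FOS (log2 change -1.69) and JUNB (-1.26) fell while MYC (1.08) and KLF6 (0.63) rose, and of 18 genes of MAP kinase feedback, DUSP6 (-1.15) and SPRY1 (-1.67) fell while DUSP7 (1.29) and DUSP5 (1.14) rose. With 1 irradiated library left out, 3 or 4 genes of the NF-kB list fell, against 5 with all libraries. Without irradiated knockdown replicate 1 the MYC, KLF6 and JUNB calls were lost. In the MAP kinase list each of the 4 calls was lost under at least 1 alternative, and the medians of the lists were -0.16 and -0.35.

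**Figure D2:**
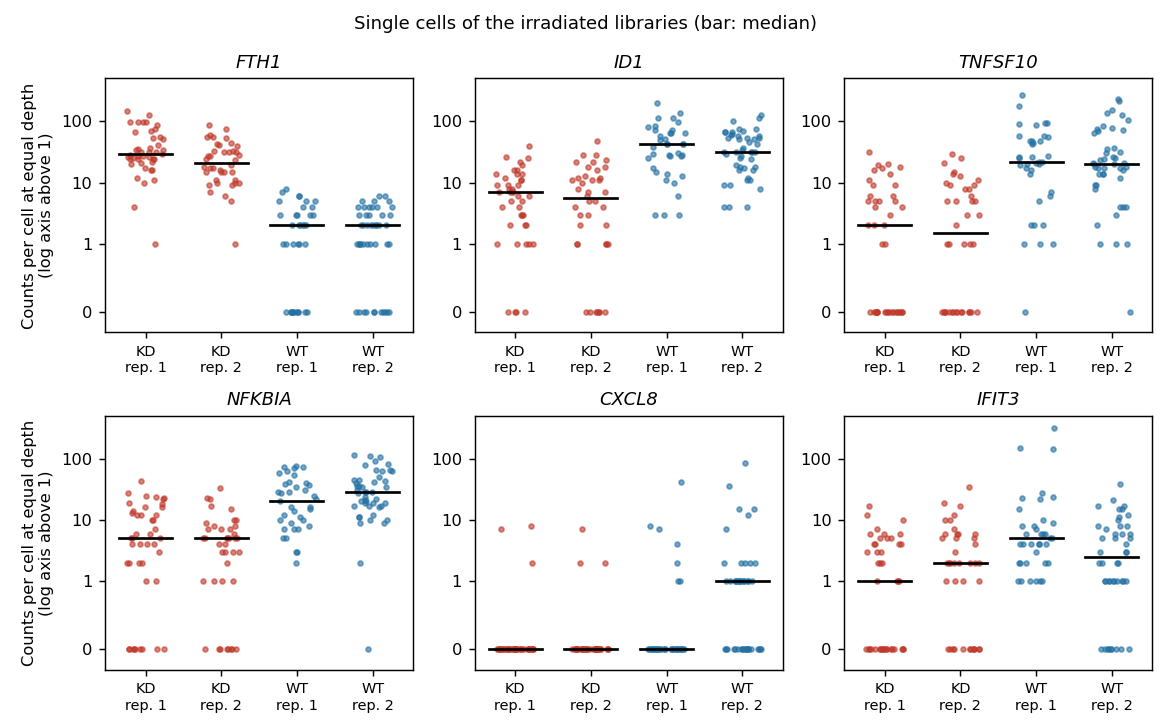
Counts per cell of 6 genes in the irradiated libraries after thinning each cell to 71000 counts, on an axis that is logarithmic above 1; points are cells and bars medians, with the 2 knockdown libraries on the left of each panel. The medians of FTH1 are higher and those of ID1, TNFSF10 and NFKBIA lower in both knockdown libraries, while CXCL8 counts are found in 3 of 43 and 3 of 40 knockdown cells and the highest IFIT3 cell, with 311 counts, is of irradiated WT replicate 1.

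Interferon-response genes fell in part. Of 30 tested members 8 fell (IFIT1, IFIT2, IFIT3, IFI44, ISG20, OAS1, IRF1 and IFIH1) and 1 rose (IFI27), with a median log2 change of -0.71. The IFIT genes encode proteins that bind viral RNA, IFIH1 is the RNA sensor MDA5 and IRF1 is a transcription factor of the pathway. Without irradiated WT replicate 1 the number of falls was 2, IFIT1 and IRF1, and the median was -0.42. Windows of IFIT1 and IFIT3 are shown because each holds 2 matches to the interferon-stimulated response element (TTTC, any 2 bases, then TTTC), in capitals (chr10:89392373-89392622 and chr10:89327747-89327996, both on the plus strand, RefSeq, GRCh38.p14).
IFIT1: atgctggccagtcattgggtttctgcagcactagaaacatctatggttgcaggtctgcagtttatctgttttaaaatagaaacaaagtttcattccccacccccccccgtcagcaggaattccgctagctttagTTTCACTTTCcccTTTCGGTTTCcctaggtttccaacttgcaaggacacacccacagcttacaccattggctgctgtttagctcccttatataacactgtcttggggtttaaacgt
IFIT3: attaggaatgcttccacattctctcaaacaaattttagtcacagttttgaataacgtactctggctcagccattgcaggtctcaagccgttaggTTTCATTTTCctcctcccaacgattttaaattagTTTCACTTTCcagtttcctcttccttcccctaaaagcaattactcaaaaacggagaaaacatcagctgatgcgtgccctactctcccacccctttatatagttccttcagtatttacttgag
On both strands, this element was found in 5 of the 7 fallen members matched in the promoter table (IFIT1, IFIT3, IFI44, ISG20 and IFIH1), and in 3.07% of the 27303 windows.

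IFIT1 (chromosome 10, 89392546 to 89406486) was at 2.78 and 6.60 CPM in irradiated knockdown libraries and at 218 and 47.9 CPM in irradiated WT libraries, a log2 change of -4.89 ± 0.85 (adjusted p = 0.00368). At equal depth its counts were found in 5 of 43 and 5 of 40 cells of the irradiated knockdown libraries, against 35 of 37 and 24 of 46 cells of the irradiated WT libraries. IFIT1 was thus found in a smaller share of cells in each knockdown library than in each WT library. IFIT3 was at 33.5 and 47.6 CPM in irradiated knockdown libraries and at 451 and 54.4 CPM in irradiated WT libraries (log2 change -2.71, adjusted p = 0.0187). IFIT2 was at 14.1 and 19.9 CPM in irradiated knockdown libraries and at 303 and 27.95 CPM in irradiated WT libraries (log2 change -3.36, adjusted p = 0.0195). For both, irradiated WT replicate 1 stood far above the other 3 libraries and replicate 2 lay just above the knockdown ones. Without replicate 1 the adjusted p was 0.521 for IFIT2 and 0.587 for IFIT3, and 1 cell held 51.2% of its IFIT3 counts and 42.4% of its IFIT2 counts. IRF1, at 17.3 and 11.04 CPM in irradiated knockdown libraries and 57.5 and 50.4 CPM in irradiated WT libraries, fell with a change of -2.003 ± 0.32 (adjusted p = 0.00214). OAS1 had 0 counts in both irradiated knockdown libraries and 36 and 39 counts in irradiated WT libraries, at least 33.8-fold lower in knockdown by the same floor (adjusted p = 0.0456). IFI27 was at 57.4 and 54.4 CPM in irradiated knockdown libraries and at 24.2 and 24.3 CPM in irradiated WT libraries (adjusted p = 0.0244). IFIT1, IFIT2 and IFIT3 overlap LIPA. None of 11 genes of MHC class I presentation passed, against 5.1% of all genes tested. B2M had a log2 change of 0.32 and HLA-B one of 1.37 (adjusted p = 0.256 and 0.175).

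Mitotic genes were lower in irradiated knockdown, by an amount that depended on irradiated WT replicate 1. Of 52 G2/M and mitotic genes 51 had a negative log2 change, the median was -0.92, and 11 fell (KIF20A, GTSE1, CCNB2, AURKB, PTTG1, BIRC5, UBE2C, TOP2A, CDK1, CKS1B and ECT2). The list summed to 5105 and 4366 CPM in irradiated knockdown libraries and to 10951 and 6319 CPM in irradiated WT libraries. Without irradiated WT replicate 1 the median was -0.42 and the falls were 2, PTTG1 and BIRC5, while without irradiated WT replicate 2 the median was -1.32 and the falls were 30. PTTG1, which encodes the mitotic protein securin, was at 305 and 211 CPM in irradiated knockdown libraries and at 672 and 560.1 CPM in irradiated WT libraries (log2 change -1.33 ± 0.20, adjusted p = 0.00157). BIRC5, the mitotic protein survivin, was at 126 and 73.8 CPM in irradiated knockdown libraries and at 286 and 189.7 CPM in irradiated WT libraries (log2 change -1.33, adjusted p = 0.00872). PLK1, the kinase that starts mitosis after a checkpoint, was at 36.5 and 22.02 CPM in irradiated knockdown libraries and at 136 and 43.3 CPM in irradiated WT libraries and did not pass (adjusted p = 0.0685). CCNB1 was at 208 and 182 CPM in irradiated knockdown libraries and at 514 and 147 CPM in irradiated WT libraries, with 1 WT library above and 1 below both knockdown ones. In single cells at equal depth, the list took a median of 0.311% and 0.318% of counts in irradiated knockdown libraries, against 0.637% and 0.423% in irradiated WT libraries. CDC20 and MKI67 did not pass either (log2 changes -1.02 and -0.41).

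Of 49 G1/S and replication genes 42 had a negative log2 change, with a median of -0.40, and 4 fell. TK1, the thymidine kinase, was at 109 and 85.2 CPM in irradiated knockdown libraries and at 365 and 339 CPM in irradiated WT libraries (log2 change -1.93 ± 0.20, adjusted p = 4.97e-05). TYMS, the thymidylate synthase, had 115 and 114 CPM in irradiated knockdown libraries and 251 and 323 CPM in irradiated WT libraries (log2 change -1.40, adjusted p = 0.000762). The transcription factor E2F1 changed by -1.25 (adjusted p = 0.0197), a call that was lost without irradiated knockdown replicate 1, without irradiated knockdown replicate 2 and without irradiated WT replicate 2 (adjusted p up to 0.192). TK1 and TYMS both serve the supply of thymidine nucleotides, and TYMS overlaps ENOSF1. With 1 irradiated library left out 2 to 6 of the list fell. Without irradiated WT replicate 2 the median of the list was -0.03 and 24 members had a positive change, against 7 with all libraries. FAM111B, a trypsin-like protease, did not pass, at 45.7 and 52.2 CPM in irradiated knockdown libraries and 43.2 and 64.1 CPM in irradiated WT libraries (adjusted p = 0.808). Among 11 histone genes, HIST1H4C fell, at 1637 and 2521 CPM in irradiated knockdown libraries and 3836 and 5131 CPM in irradiated WT libraries (adjusted p = 0.00805). The HIST1H4C call was lost when cells with more than 2 times the library's median total were removed (adjusted p = 0.0769). HIST1H2BK rose with a change of 2.33 (adjusted p = 0.013), a call that was lost without irradiated knockdown replicate 2 and without irradiated WT replicate 2.

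Calcium-binding S100 proteins, galectin-1 and glycolytic enzymes were lower in irradiated knockdown. Of 14 S100 and galectin genes 7 fell and none rose, with a median log2 change of -0.60, and 7 fell with any 1 irradiated library left out. S100A2 was at 82.1 and 46.8 CPM in irradiated knockdown libraries and at 479 and 494 CPM in irradiated WT libraries (log2 change -2.99 ± 0.22, adjusted p = 3.38e-06). LGALS1, which encodes galectin-1, was at 1717 and 1895 CPM in irradiated knockdown libraries and at 4792 and 4120 CPM in irradiated WT libraries (log2 change -1.37 ± 0.12, adjusted p = 1.34e-05). Knockdown libraries were the lower ones for both, which the rule that chose S100A2 required of that gene. The list took a median of 1.34% and 1.45% of a cell's counts in irradiated knockdown libraries, against 2.23% and 2.41% in irradiated WT libraries. S100A3 (which overlaps S100A4), S100A6, S100A13, S100A4 and S100A10 fell too, with log2 changes between -1.47 and -0.58, whereas S100A11 was at 2230 and 2508 CPM in irradiated knockdown libraries and 1868 and 1849 CPM in irradiated WT libraries and did not pass (adjusted p = 0.155).

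Of 32 hypoxia and glycolysis genes 9 fell and none rose, with a median of -0.44. LDHA, the lactate dehydrogenase, was at 1508 and 1455 CPM in irradiated knockdown libraries and at 3078 and 3063 CPM in irradiated WT libraries (log2 change -1.12 ± 0.10, adjusted p = 2.14e-05). PKM and ENO1, the enzymes of the last steps before pyruvate, had log2 changes of -0.92 and -0.82 (adjusted p = 0.000358 and 0.00157), and TPI1 and PGK1 ones of -0.91 and -0.64. BNIP3 and BNIP3L, mitophagy receptors induced by low oxygen, fell too, with log2 changes of -1.27 and -1.23, as did NDRG1 (-1.30) and the glucose transporter SLC2A3 (-1.81). The list took a median of 1.02% and 1.04% of a cell's counts in irradiated knockdown libraries, against 1.72% and 1.64% in irradiated WT libraries. Of 41 nuclear-encoded respiratory chain genes 7 fell and none rose, with a median of -0.29. COX8A, a subunit of cytochrome c oxidase, was at 187 and 193 CPM in irradiated knockdown libraries and at 579 and 709.9 CPM in irradiated WT libraries (log2 change -1.83, adjusted p = 1.34e-05), and NDUFB8, ATP5PO, COX6A1, UQCRQ, UQCRB and CYC1 were the others. Of the 13 mitochondrially encoded genes MT-CO1 rose (0.43) and MT-ATP6 (-0.47) and MT-ND6 (-0.54) fell, with a median of -0.01. UCP2, a carrier of the inner mitochondrial membrane, was at 60.7 and 47.1 CPM in irradiated knockdown libraries and at 289 and 256 CPM in irradiated WT libraries (log2 change -2.41, adjusted p = 1.34e-05).

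ID1 and ID2, which bind and block basic helix-loop-helix factors, were the 2 falls among 11 ID and SOX regulators. ID1 was at 133 and 126 CPM in irradiated knockdown libraries and at 620.3 and 479.9 CPM in irradiated WT libraries (log2 change -2.16 ± 0.16, adjusted p = 3.38e-06). ID2 was at 1.67 and 1.08 CPM in irradiated knockdown libraries and at 12.1 and 29.5 CPM in irradiated WT libraries (adjusted p = 0.0019), with 1 cell holding 90.9% or more of the counts in each knockdown library. Transport genes were among the 12 largest falls. SLCO4A1, an organic anion transporter, was at 10.1 and 6.45 CPM in irradiated knockdown libraries and at 58.6 and 61.8 CPM in irradiated WT libraries (log2 change -2.93). SLC5A3, the myo-inositol importer, was at 43.8 and 39.1 CPM in irradiated knockdown libraries and at 198 and 396 CPM in irradiated WT libraries (log2 change -2.91), and it lies within MRPS6, which fell too (-1.30), so their reads may be shared. ATP6V0A2, part of the vacuolar proton pump, was at 24.2 and 23.7 CPM in irradiated knockdown libraries and at 219 and 31.9 CPM in irradiated WT libraries, but 1 cell held 90.7% of the counts of irradiated WT replicate 1 and the adjusted p without that library was 0.739.

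Genes for building ribosomes were higher in irradiated knockdown. Of 34 ribosome biogenesis genes 31 had a positive log2 change, with a median of 0.71, and 8 rose while none fell. DKC1, the pseudouridine synthase dyskerin, was at 275 and 245 CPM in irradiated knockdown libraries and at 110.2 and 109 CPM in irradiated WT libraries (log2 change 1.17 ± 0.18, adjusted p = 0.00189). NOP16, NOLC1 and the nucleolin gene NCL had log2 changes of 1.19, 0.95 and 0.68 (adjusted p = 0.00671, 0.0143 and 0.02), and POLR1B, UTP20, NOL6 and WDR43 rose as well. Without 1 irradiated library the number of rises was between 2 and 5, and the median stayed between 0.59 and 0.86. The list took a median of 0.465% and 0.427% of a cell's counts in irradiated knockdown libraries, against 0.310% and 0.287% in irradiated WT libraries. Of 13 polyamine and MYC genes 3 rose: MYC was at 168 and 109.6 CPM in irradiated knockdown libraries and at 65.2 and 59.9 CPM in irradiated WT libraries (adjusted p = 0.0082), and the polyamine enzymes ODC1 and SRM had log2 changes of 1.80 and 0.82. Of 77 ribosomal protein genes 3 rose and 9 fell, with a median of -0.11 and from -1.23 (RPS15A) to 0.97 (RPS23) among those that passed, and they have many pseudogenes that may share reads. With 1 irradiated library left out 1 to 3 rose and 3 to 5 fell, and 5 fell with no scaling. None of 19 aminoacyl-tRNA synthetases passed, against 5.1% of all genes tested, although 16 had a positive change. YARS and HARS were nearest (adjusted p = 0.0561 and 0.0613).

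Of 25 cholesterol synthesis genes 6 rose and none fell, with a median of 0.30. MVD, of the mevalonate pathway, was at 67.3 and 63.8 CPM in irradiated knockdown libraries and at 18.1 and 21.3 CPM in irradiated WT libraries (log2 change 1.66 ± 0.27, adjusted p = 0.00259). DHCR7 and MSMO1, of the later sterol steps, had log2 changes of 1.15 and 1.05, and SQLE, the squalene epoxidase, one of 0.93, with FDPS named above. With 1 irradiated library left out the number of rises was 3 to 5, with 3 where irradiated knockdown replicate 2 was left out. Of 13 heat shock genes 3 rose: HSPA8, the constitutive HSC70 chaperone, was at 2210 and 2221 CPM in irradiated knockdown libraries and at 843 and 702 CPM in irradiated WT libraries (log2 change 1.45 ± 0.14, adjusted p = 3.41e-05), with 17 named pseudogenes. HSPD1 and HSP90AB1 had changes of 0.55 and 0.46, and each call was lost with any 1 of 3 of the 4 libraries left out. Of 25 genes of the unfolded protein and ATF4 responses 21 had a positive change, with a median of 0.48, and 3 rose: the chaperone HSPA5 (0.70) and the amino acid transporters SLC3A2 (0.80) and SLC7A5 (0.78). None of the 25 rose without irradiated knockdown replicate 2 or without irradiated WT replicate 2, where 1 other member fell, and 1 rose without irradiated knockdown replicate 1. The median stayed between 0.38 and 0.58 with 1 irradiated library left out. Against a median log2 change of 0.00 over all genes, the medians were -0.02 for damage sensing, -0.13 for homologous recombination, -0.09 for end joining, -0.15 for apoptosis and -1.17 for histones. They were 0.35 for iron and metallothionein genes, 0.06 for NRF2 targets, 0.55 for plasminogen activation, 0.32 for MHC class I, 0.07 for heat shock, 0.29 for the synthetases and -0.37 for ID and SOX regulators. The polyamine and MYC list had a median of -0.19, opposite in sign to its 3 rises.

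**Figure D3:**
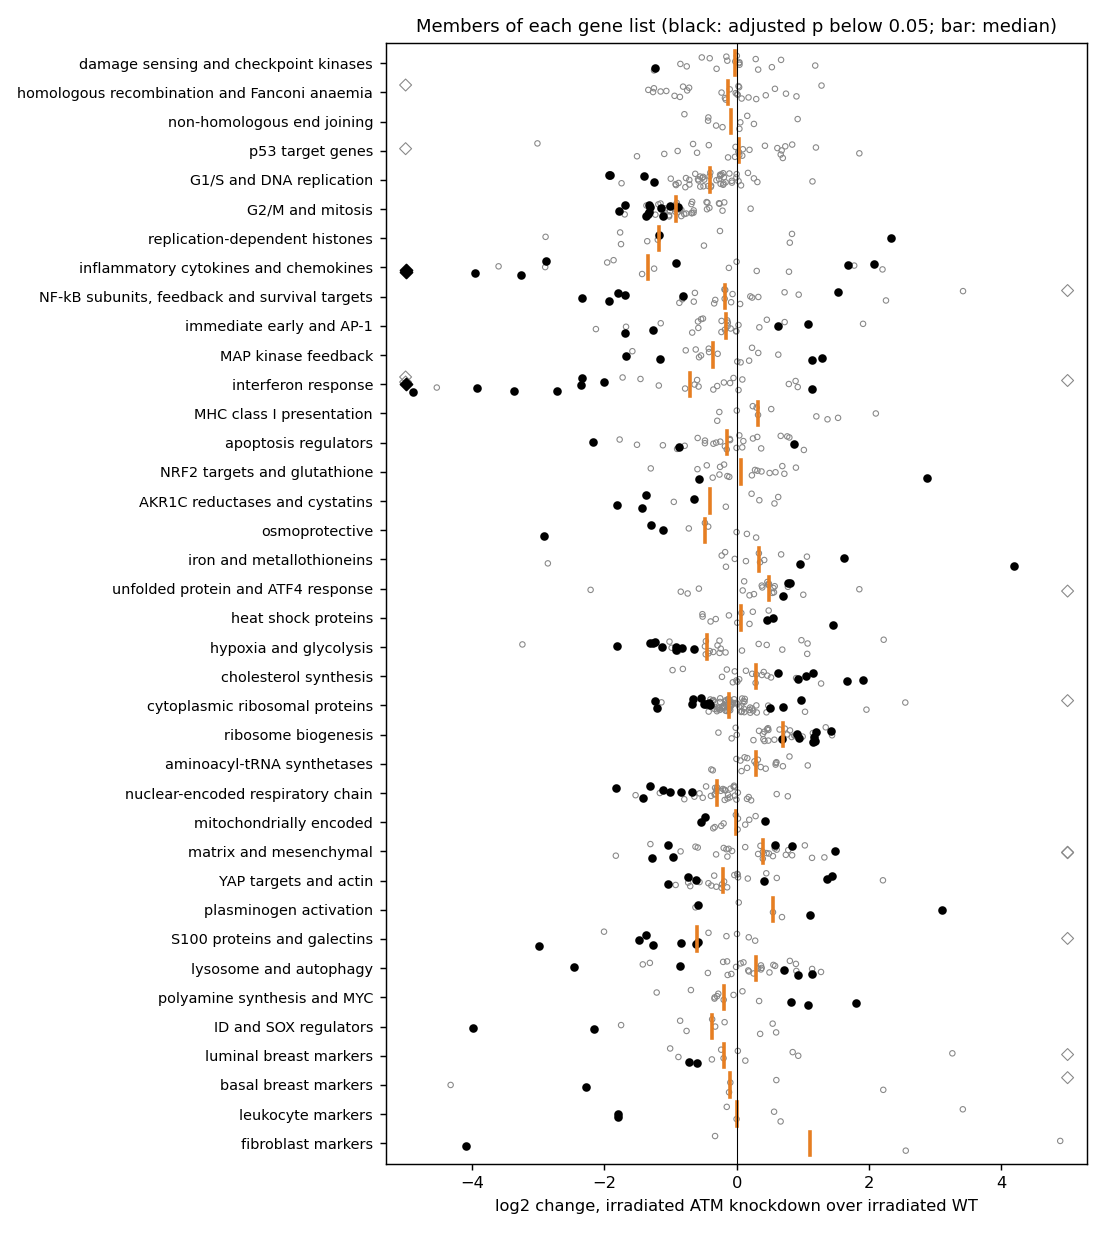
log2 change of each tested member of the gene lists, irradiated ATM knockdown over irradiated WT, with 1 row per list; black marks had an adjusted p below 0.05 and grey open marks did not, orange bars are list medians, and diamonds at the edge stand for values beyond 5 in size. The medians of the G2/M, cytokine and S100 lists lie left of 0 and that of ribosome biogenesis right of it, while the repair and p53 lists straddle 0.

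Of 10 AKR1C reductase and cystatin genes 4 fell: AKR1C3, a steroid reductase, was at 169 and 165 CPM in irradiated knockdown libraries and at 500.04 and 619 CPM in irradiated WT libraries (log2 change -1.81, adjusted p = 2.66e-05), and AKR1C1, CST6 and CST3 changed by -1.43, -1.37 and -0.64. AKR1C genes are close copies of each other and may share reads. Of 9 osmoprotective genes 3 fell, SLC5A3, MRPS6 and the amino acid transporter SLC38A2 (-1.11), while AKR1B1, the aldose reductase, did not pass (log2 change 0.30, adjusted p = 0.103). Of 35 matrix and mesenchymal genes, FN1 (-1.28), CDH11 (-0.96) and the receptor kinase AXL (-1.03) fell, and COL4A1 (1.49), LAMB3 (0.83) and CD44 (0.58) rose. Of 26 YAP target and actin genes CNN2 (1.44), TPM1 (1.36) and ACTG1 (0.41) rose and AXL, MYL6 (-0.74) and TAGLN2 (-0.62) fell. With 1 irradiated library left out, 2 to 4 matrix genes rose and 2 or 3 fell, and 1 to 4 YAP and actin genes rose and 2 or 3 fell, with 1 rise where irradiated knockdown replicate 2 or irradiated WT replicate 2 was left out. Of 30 lysosome and autophagy genes 3 rose, CTSA (1.13) and LAMP1 (0.92) among them, and the proton pump subunits ATP6V0A2 and ATP6V1A (-0.85) fell. No lysosome gene rose without irradiated knockdown replicate 2 and 1 did without irradiated WT replicate 2. The CTSA call was lost in both cases (adjusted p up to 0.0603), and the LAMP1 call without irradiated knockdown replicate 2 and without irradiated WT replicate 1 (adjusted p up to 0.271). The medians were -0.40 for reductases and cystatins, -0.48 for osmoprotective genes, 0.40 for matrix, -0.20 for YAP and actin and 0.29 for lysosome genes.

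Some markers of other cell types differed as well. Among 13 luminal breast genes KRT8 and KRT18 fell (log2 changes -0.60 and -0.72). These 2 genes overlap each other in the annotation and have 50 and 67 named pseudogenes. Both calls were lost without irradiated knockdown replicate 1 and without irradiated WT replicate 1. In the list of 7 tested basal genes KRT81 fell (-2.28), with over 35% of its counts in 1 cell in every irradiated library. KRT81 is a hair keratin and not a usual basal marker. Among 7 leukocyte genes CD14 was at 12.01 and 17.9 CPM in irradiated knockdown libraries and at 40.9 and 57.9 CPM in irradiated WT libraries (adjusted p = 0.00301), and LAPTM5 at 19.03 and 20.3 CPM in irradiated knockdown libraries and 74.7 and 55.6 CPM in irradiated WT libraries (adjusted p = 0.0173). The leukocyte list summed to 870 and 643 CPM in irradiated knockdown libraries and to 789 and 798 CPM in irradiated WT libraries. Of leukocyte genes, CD3D and LYZ were at 0, and SRGN was at 118 CPM or more in each irradiated library. Among 4 fibroblast genes COL1A2 fell, at 0 and 3.40 CPM in irradiated knockdown libraries and 25.96 and 29.7 CPM in irradiated WT libraries (adjusted p = 0.037), and the list summed to 7.77 and 20.5 CPM in irradiated knockdown libraries and to 31.9 and 36.9 CPM in irradiated WT libraries. List medians were -0.20 for luminal, -0.09 for basal, 0.00 for leukocyte and 1.12 for fibroblast genes, the last 0.33 with members at 0 in a group set to their bound. The part of other cell types in the results was not tested beyond these levels.

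The same genotypes were compared without radiation so that the difference between genotypes could be set beside the one after irradiation. Untreated knockdown differed from untreated WT in 1238 genes (9.94% of genes tested), 602 higher (4.83%) and 636 lower (5.11%), and this comparison shares no library with the irradiated one, only the estimate of spread. Of the 635 genes past the threshold after irradiation, 352 also passed untreated in the same direction, which is 55.4% of the irradiated calls and 28.4% of the untreated ones. FTH1, HMOX1, HSPG2, S100A2, SLCO4A1, UCP2 and ID1 were among them: S100A2 was at 115 and 126 CPM in untreated knockdown libraries and at 716 and 851 CPM in untreated WT libraries, a log2 change of -2.76, and FTH1 had an untreated change of 4.63. A further 277 irradiated calls did not pass untreated, but the difference between the 2 genotype differences itself passed for only 3 of these, TRIM16L, CXCL3 and CXCL8. A gene that passed in 1 comparison and not in the other is therefore mostly not shown to differ between them. TRIM29 had an untreated change of -0.03, but its difference of differences did not pass (2.18, adjusted p = 0.117). G2/M genes had an untreated median of -0.14 and 1 fall, and no member of that list had a difference of differences past the threshold. Other lists differed between genotypes without radiation too. The untreated median was 1.09 for ribosome biogenesis (19 rises), -1.26 for S100 and galectin genes (7 falls, 1 rise) and -0.70 for hypoxia and glycolysis (16 falls, 1 rise). The cytokine list changed sign, with an untreated median of 1.11 (6 rises, 3 falls). Other lists changed sign too, among them G1/S, NF-kB and matrix genes. Untreated medians were 0.37 for G1/S, 0.35 for NF-kB and -0.44 for matrix genes, against -0.40, -0.18 and 0.40 after irradiation. No G1/S gene, 1 NF-kB gene and 1 matrix gene had a difference of differences past the threshold.

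In both comparisons, 6 genes passed with opposite signs: BIRC3, CXCL2, SLC4A7, ACTG1, ZC3H12A and AMIGO2, the last 3 named after their values were seen. The difference of differences passed for 23 genes (0.185%), 10 lower (0.0803%) and 13 higher (0.104%), and for 1183 at an unadjusted p below 0.05. Of the 10, 6 belong to the cytokine list. CXCL2 was at 3.84 and 1.495 CPM in irradiated knockdown libraries and 12.1 and 65.97 CPM in irradiated WT libraries, but at 138 and 166 CPM in untreated knockdown libraries and 39.2 and 12.5 CPM in untreated WT libraries. CXCL2 was thus lower in knockdown after irradiation and higher in knockdown without it, and the difference of differences was -6.45 ± 0.92 on the log2 scale (adjusted p = 0.00727). CXCL8 was at 173 and 244 CPM in untreated knockdown libraries and at 92.1 and 27.3 CPM in untreated WT libraries (untreated change 1.75, adjusted p = 0.0658; difference of differences -5.002, adjusted p = 0.0336). BIRC3 was at 245 and 295 CPM in untreated knockdown libraries and at 94.1 and 150.3 CPM in untreated WT libraries (difference of differences -2.77, adjusted p = 0.00531). IL6, CSF2, CXCL3 and ZC3H12A, an RNase that degrades cytokine transcripts, had differences of -3.004, -4.73, -6.79 and -3.21. TNFSF10 was lower in knockdown in both comparisons, with changes of -2.88 after irradiation and -1.10 untreated (difference -1.77, adjusted p = 0.0466).

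**Figure D4:**
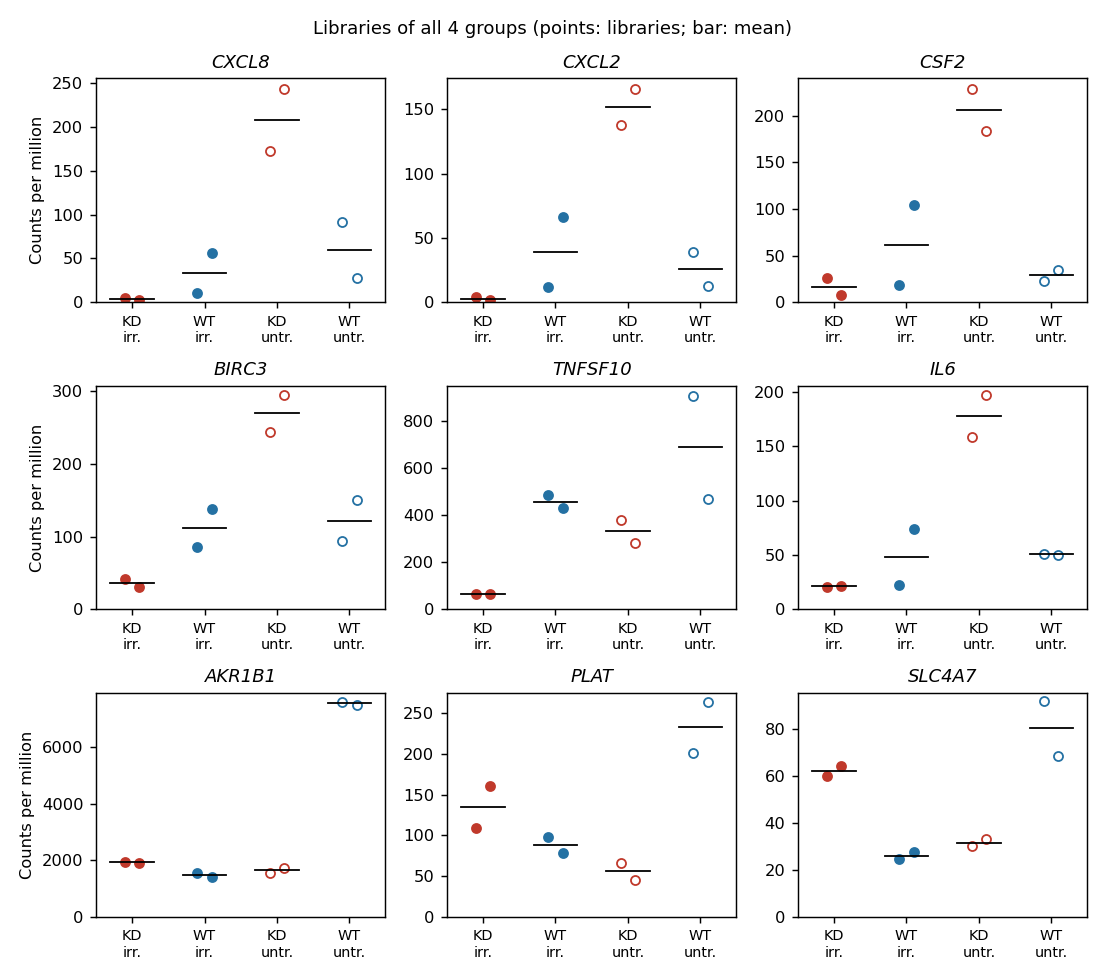
CPM of 9 genes in the libraries of all 4 groups (vertical axis from 0), irradiated then untreated with knockdown left of WT in each pair; points are libraries and bars means. CXCL8, CXCL2, CSF2, BIRC3 and IL6 are lowest on average in irradiated knockdown and highest in untreated knockdown, while AKR1B1 is highest in untreated WT, at 7602 and 7479 CPM.

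In the other direction, AKR1B1, PLAT and SLC4A7 had lower levels in untreated knockdown than in untreated WT. AKR1B1, the aldose reductase, was at 1922 and 1916 CPM in irradiated knockdown libraries and 1563 and 1415 CPM in irradiated WT libraries, but at 1559 and 1733 CPM in untreated knockdown libraries and 7602 and 7479 CPM in untreated WT libraries (difference of differences 2.55 ± 0.14, adjusted p = 1.33e-07). The untreated WT libraries stood apart, and the other 6 libraries lay between 1415 and 1922 CPM. PLAT, the tissue plasminogen activator, was at 109.6 and 161 CPM in irradiated knockdown libraries and 98.5 and 78.1 CPM in irradiated WT libraries, but at 66.1 and 45.2 CPM in untreated knockdown libraries and 201 and 264 CPM in untreated WT libraries (difference 2.67, adjusted p = 0.00531). SLC4A7, a bicarbonate transporter, was at 59.9 and 64.1 CPM in irradiated knockdown libraries and 24.5 and 27.5 CPM in irradiated WT libraries, but at 30.2 and 32.9 CPM in untreated knockdown libraries and 91.9 and 68.5 CPM in untreated WT libraries (difference 2.58, adjusted p = 0.00727). SLC4A7 was higher in knockdown with radiation and lower without it, although its call after irradiation was lost with any 1 irradiated library left out (adjusted p up to 0.106). AKR1C2, AKR1C1, PSG5 and MRPS6 had differences of 3.02, 1.75, 2.28 and 1.65.

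**Figure D5:**
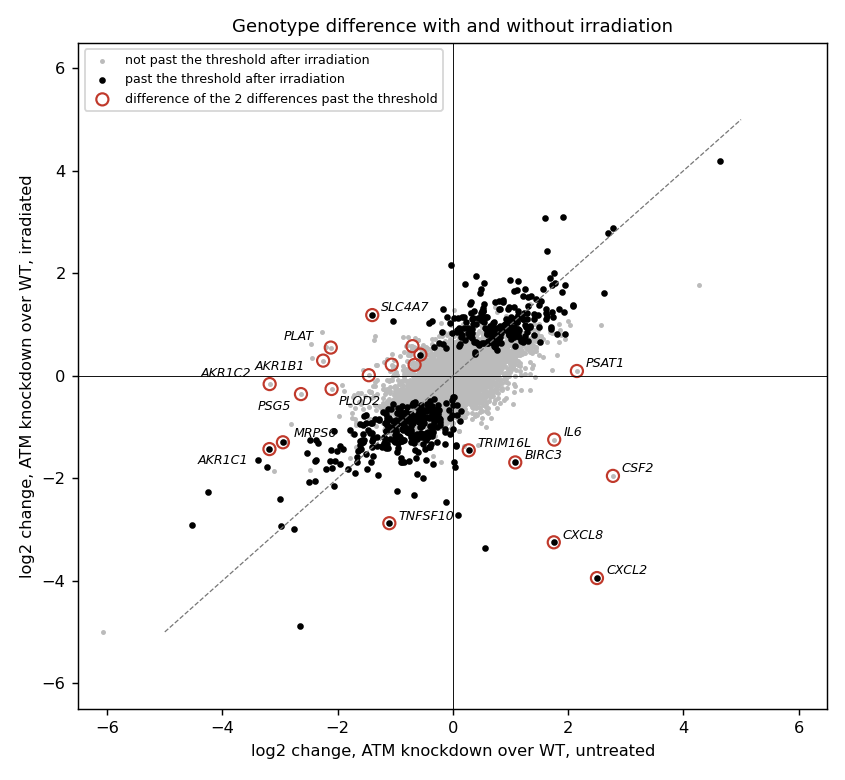
log2 change of ATM knockdown over WT after irradiation (vertical) against the same change untreated (horizontal) for the 5032 genes that averaged 5 or more in log2 CPM; the dashed line marks equal changes and black points passed after irradiation. The 21 red circles are genes whose difference of differences passed, with 16 named, and CXCL2, CXCL8, CSF2, BIRC3 and IL6 lie at the lower right, with a positive change untreated and a negative one after irradiation.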

How the data were processed

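Single MDA-MB-231 cells were sequenced in 8 libraries, 2 for each of 4 groups, assigned from the source labels of the samples. The deposited tables hold raw counts per gene and cell, whole numbers that the authors made, per the submitters' processing notes, with Trimmomatic 0.36, HISAT2 2.1.0 and HTSeq 0.9.1 on hg38; whether counting used strand is not given in the sources used here. A gene that a table does not list was taken as 0. Counts of cells with at least 1000 genes and 5000 counts were summed per library, and filtered and tested with edgeR 4.0.16 (filterByExpr, TMM scaling, quasi-likelihood fit) in R 4.3.3, with 4 residual degrees of freedom, the 4 groups in 1 fit and p-values adjusted by Benjamini-Hochberg over 12456 genes. Levels are CPM without TMM. Each SE is the size of the log2 change divided by the square root of the quasi-likelihood F statistic, and is not estimated separately. For values per cell, each cell was thinned to 71000 counts, which 327 of 363 cells reached. Cells below this depth were left out of these values, 0 and 3 in irradiated knockdown libraries and 11 and 2 in irradiated WT libraries. The cells compared were therefore selected by depth most strongly in irradiated WT replicate 1. On counts simulated for the irradiated comparison (12161 genes) the test found 58% of the 2-fold and 100% of the 4-fold changes put in. It also called 14 unchanged genes, and made 0 calls where nothing was changed. These values describe the simulated counts only. Whether they hold for the 12456 genes tested, among them genes with low counts or with most counts in 1 cell, was not tested.

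Genes were named by a rule: the 12 largest changes each way among genes that averaged 5 or more in log2 CPM and whose libraries did not overlap, up to 4 lowest-p members per list (2 where none passed), a fixed set that included ATM, CDKN1A and IL6, and the 5 largest differences of differences in each direction. The remaining list members that passed, and FTL, S100A11, RELA and NFKB1, were named after their values were seen. The members and gene lists were chosen with earlier results of these data known. Alternatives were the DESeq2 1.42.0 Wald test and size factors, limma 3.58.1 on mean CPM per cell, other filters on cells and genes, thinning, fits of the compared groups alone and leaving out each library. Gene positions, overlaps and pseudogenes are from GENCODE 29 (GRCh38), and promoters from RefSeq. Some genes that the rule names are not reported here.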

Additional observations from a re-analysis of the deposited data

Results flagged for a closer look

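The difference between genotypes was not the same with and without radiation for 23 genes, by the test of the difference itself in edgeR's quasi-likelihood fit (adjusted p below 0.05). Values here are log2 differences, irradiated knockdown over irradiated WT minus untreated knockdown over untreated WT. Among cytokines and NF-kB targets, the value was -6.45 for CXCL2, -5.002 for CXCL8, -6.79 for CXCL3, -4.73 for CSF2, -3.004 for IL6, -2.77 for BIRC3 and -1.77 for TNFSF10. CSF2, a growth factor of granulocytes and macrophages, was at 26.2 and 7.48 CPM in irradiated knockdown libraries, 18.8 and 105 CPM in irradiated WT libraries, 229 and 184 CPM in untreated knockdown libraries and 23.1 and 34.7 CPM in untreated WT libraries. Its untreated knockdown libraries stood above the other 6, and its irradiated groups overlapped.

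In the other direction, the value was 3.02 for AKR1C2, 2.67 for PLAT, 2.58 for SLC4A7, 2.55 for AKR1B1, 2.28 for PSG5, 1.75 for AKR1C1 and 1.65 for MRPS6. AKR1C2 was at 8.23 and 9.90 CPM in irradiated knockdown libraries, 7.08 and 12.1 CPM in irradiated WT libraries, 8.96 and 16.3 CPM in untreated knockdown libraries and 129.9 and 90.7 CPM in untreated WT libraries. AKR1C and PSG genes have close copies that may share reads. The remaining 9 of the 23 genes were named after their values were seen: ZC3H12A, PSAT1 and TRIM16L had negative values and MYL12A, ACTG1, CD9, THBS1, HSPH1 and PLOD2 positive ones, between -3.21 and 1.85.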

How the results depend on the processing

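Genes past the threshold after irradiation were 635, 1115 with the DESeq2 Wald test and 1044 with no filter on low counts, and between 308 and 980 with 1 library left out. For untreated cells the count was 1238, 718 in a fit of the compared groups alone, and between 965 and 1390 with 1 library left out. For the difference of differences it was 23, 144 with the Wald test, 195 with no filter, and between 31 and 128 with 1 library left out, and the compared groups alone give no value for it. Of these 23 genes, 20 to 23 were shared with 1 library left out, but 14 with thinned cells and 12 with limma, and 11 when cells whose total was more than 2 times the library median were removed. List members past the threshold were 150, 238 with no filter, and between 104 and 231 with 1 library left out. Without scaling, the median of all genes moved by 0.0649 on the log2 scale and the irradiated split was 334 higher and 309 lower, against 271 and 364. None of the 118 named genes that passed changed sign under any alternative that gave a value. Of the others among the 143 named, some did, such as CCNB1 (log2 change -1.48 to 0.347), MDM2 (-0.636 to 0.277) and GDF15 (-2.06 to 0.795). Of the 118, 65 passed under each of the 18 to 20 alternatives, of 20, that gave them a value, and 53 did not under at least 1. Without irradiated knockdown replicate 1, 25 named genes lost their call, MYC and HSPD1 among them (adjusted p 0.0534 to 0.387). Without irradiated knockdown replicate 2 these were 26, BIRC5, FN1 and PLAUR among them (0.0502 to 0.293). Without irradiated WT replicate 1 these were 25, IFIT2, IFIT3, IFI44, GTSE1 and TFRC among them (0.0529 to 0.739). Without irradiated WT replicate 2 these were 27, CXCL8, PNP, NOP16 and TPM1 among them (0.0554 to 0.346). CHEK1, KLF6, NQO1, ATP6V1A, DUSP5, SLC4A7 and SLC7A5 lost theirs in all 4 of these. The causes were not tested. With 1 library left out, the lone library of a group is assumed to vary like the others. No paired analysis was possible because the labels give no replicate number shared between groups.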
